A study of Mus musculus with 8 samples.

Results

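Carboxylesterases are enzymes that split esters, amides and carbamates, and 10 of their genes are described here: Ces1c, Ces1d, Ces1e, Ces1f, Ces1g, Ces2a, Ces2c, Ces2e, Ces3a and Ces3b. They were taken by symbol from the 35204 gene rows of the deposited table, and all 10 were found. The table covers 8 poly-A RNA libraries of mouse liver pieces. The 3 control libraries came from wild-type C57BL/6J mice with no treatment. The 5 libraries called TAZ-CCl4 here came from wild-type C57BL/6J mice that received the construct EF1a-TAZS89A by HTVI, together with CCl4 given 30 times, 3 times a week for 10 weeks. HTVI, hydrodynamic tail vein injection, delivers plasmid DNA mainly to hepatocytes, EF1a names a promoter active in most cell types, TAZ S89A is a form of the transcriptional coactivator TAZ that escapes Hippo pathway control, and CCl4 is a liver toxin. Construct and toxin were given together, so their effects cannot be told apart. The labels give neither sex nor age, and leave unsaid whether every library is a mouse of its own. The p-values therefore reflect the scatter among these libraries, part of which may be technical.

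Liver carboxylesterases sit mostly in the lumen of the endoplasmic reticulum of hepatocytes, where they activate or clear ester and amide drugs and take part in the hydrolysis of stored triacylglycerol and other lipid esters. They belong to the alpha/beta hydrolase fold and use a catalytic serine. In the mouse the family grew by tandem duplication. Most of its proteins end in a short signal that is read by KDEL receptors and returns them to the endoplasmic reticulum, whereas Ces1c lacks it and is the carboxylesterase of mouse blood plasma.

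Values are the authors' normalised counts, which total 29.8 to 35.1 M per control library and 12.4 to 14.2 M per TAZ-CCl4 library. The controls and the TAZ-CCl4 libraries belong to different library projects in the labels, so project and treatment cannot be told apart. Of 14171 genes with a mean of at least 10, 4592 were higher and 4230 lower in TAZ-CCl4 libraries (limma on log2(value + 1), Benjamini-Hochberg adjusted p under 0.05). Dividing every library to equal totals shifts the median over all tested genes by 1.24 on the log2 scale, to 1.26, and gives 10808 higher and 903 lower genes. Directions below are those of the deposited scaling, except where a different one is given. Of 12 hepatocyte markers 10 were lower and 2, Alb and Trf, did not pass, against 3 lower and 1 higher at equal totals, and their summed level was 1994373 to 2437523 in the controls and 847202 to 1319587 in the TAZ-CCl4 libraries. None of the 12 was at 0 in any group. All 7 tested cholangiocyte markers were higher, with a sum of 2299 to 2902 against 34936 to 121898. Of 10 stellate cell and fibroblast markers 7 were higher (sum 2307 to 3578 against 10057 to 19191), of 8 macrophage markers 4 were higher (1331 to 2534 against 3766 to 9819), of 8 endothelial markers 3 were higher and 2 lower (1893 to 3564 against 2575 to 3575), and of 8 lymphocyte markers 3 were higher (120 to 193 against 149 to 297). Of 8 intestinal markers 4 were tested, with 2 higher and 2 lower (1870 to 2231 against 676 to 1241), and Cdx1 was listed at 0 throughout. In pieces of tissue, fewer hepatocytes and less RNA per hepatocyte cannot be told apart, and the part of these cell types in the results below was not tested.

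The retrieval signal lies at the protein end, and the ends of the coding sequences differ among the members. The last 4 codons before the stop, 5′ to 3′ and with the last 6 bases in capitals, were read from the GENCODE M21 transcript with the longest complete coding sequence of each gene.
Ces1c: acagaaCACAAA
Ces1d: catgttGAGCTC
Ces1e: cacactGAGCTG
Ces1f: cacaatGAGCTG
Ces1g: catgttGAACTG
Ces2a: catgcaGAGCTG
Ces2c: cacaggGAGCTT
Ces2e: cacaaaGAGTTG
Ces3a: ccagagGAGCTC
Ces3b: ccagagGAGCTC
The ending GAGCTG stands in Ces1e, Ces1f and Ces2a and GAGCTC in Ces1d, Ces3a and Ces3b, while no other member shares the last 6 bases of Ces1c. The 6 bases before these differ too. In Ces3a and Ces3b they begin with the codon cca, which no other member has there, although their last 6 bases match those of Ces1d. Whether each ending acts as a retrieval signal was not tested. Over the whole coding sequence Ces3a and Ces3b were 95.3% identical, the Ces2 members 83.0% to 84.3%, the Ces1 members 75.6% to 81.8%, and members of different subfamilies 64.2% to 68.5%.

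Such likeness bears on the counts, since reads from identical stretches can be assigned to either gene. Of the distinct 31-base words in the Ces3a and Ces3b transcripts, 34.9% and 35.7% were shared between this pair. For Ces2c 50.1% of words occurred in transcripts of other genes, 42.9% in the pseudogene Ces2d-ps alone, a row with a mean of 29.4 in the controls. Ces2a shared 30.2%, of which most (24.7% of its words) were with Gm7208, a row with a mean of 55.8 in the controls. Ces1c shared 23.3%, mainly with Ces1b (16.4%). The remaining members shared 3.36% to 8.68%. Values of Ces3a, Ces3b and Ces2c are therefore less certain singly than those of Ces1d, Ces1e, Ces1f, Ces1g and Ces2e.

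Promoter sequences from RefSeq (GRCm38.p6) were found for 7 of the 10 members, and the 120 bases before the start are shown for the Ces2 members, close relatives of which Ces2c fell far more than the others, and for Ces3b, one of the genes that fell most. Capitals mark matches to the motifs named below.
Ces2a, chr8:104733883-104734002, plus strand: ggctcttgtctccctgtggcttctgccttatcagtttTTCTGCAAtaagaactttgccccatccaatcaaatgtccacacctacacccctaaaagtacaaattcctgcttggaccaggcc
Ces2c, chr8:104846948-104847067, plus strand: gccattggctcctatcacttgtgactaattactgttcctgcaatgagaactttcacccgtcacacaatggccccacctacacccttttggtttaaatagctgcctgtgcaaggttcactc
Ces2e, chr8:104926140-104926259, plus strand: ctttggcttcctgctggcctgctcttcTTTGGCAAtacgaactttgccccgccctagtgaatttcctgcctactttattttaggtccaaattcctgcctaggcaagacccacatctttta
Ces3b, chr8:105083635-105083754, plus strand: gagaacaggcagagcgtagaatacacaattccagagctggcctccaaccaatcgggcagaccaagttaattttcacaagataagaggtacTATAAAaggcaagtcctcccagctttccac
The Ces2 stretches were 67.9% to 73.1% identical in the aligned bases. Pairs from different subfamilies ran from 48.6% (Ces1g and Ces2a) to 71.4% (Ces1c and Ces3b), with 69.2% for Ces2e and Ces3b. The Ces2 range is thus not set apart from that of less related members. The 250 bases before the start were searched on both strands for 6 motifs, and no match overlapped a match to another motif in the member promoters. The C/EBP letters TTGCNNAA stood in 3 member promoters, those of Ces1c, Ces2a and Ces2e, and in 9.56% of all 32851 promoters. The TATA box letters TATAAA stood in 2, those of Ces1g and Ces3b, and in 12.4% of all promoters. The TEAD letters CATTCC stood in 0 of the 7 member promoters and in 12.6% of all promoters. The AP-1 letters TGANTCA also stood in 0 of the 7, and in 6.75% of all promoters. For HNF1 the letters GTTAATNAT stood in 0 of the 7 and in 0.737% of all promoters. For HNF4 the letters CAAAGTCCA stood in 0 of the 7 and in 0.384% of all promoters. A match describes these letters only.

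Of the 10 members 9 were lower in TAZ-CCl4 libraries, against 29.8% of all tested genes, and 0 were higher, against 32.4% (limma, Benjamini-Hochberg adjusted over all tested genes). All 10 had passed the filter on low values. For 8 members every TAZ-CCl4 library lay below every control, against 29.4% of all tested genes. The median log2 fold change was -3.07, beside 0.03 over all tested genes. Ces1g was the member that did not pass, and Ces2e passed but its groups overlapped. The members were far from uniform, with log2 fold changes from -0.85 for Ces1g to -9.61 for Ces3a.

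Scaling separates the members further, in a grouping made after the values were seen. Ces1e, Ces1f, Ces2c, Ces3a and Ces3b were lower under the deposited scaling and under all 5 others tried. At equal totals those 5 were lower (against 6.37% of all tested genes) and the other 5 did not pass, none being higher (against 76.3%). When each library was divided by the geometric mean of the 12 hepatocyte markers, which asks about levels relative to other hepatocyte transcripts, the same 5 were lower again (against 4.81%) and none was higher (against 80.0%). After quantile normalisation 7 members were lower (against 29.8%) and Ces1c was higher (against 27.8%), with a log2 fold change of 0.70. Of all tested genes 4.71% were lower under the deposited scaling and all 3 of these alternatives.

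**Figure D1:**
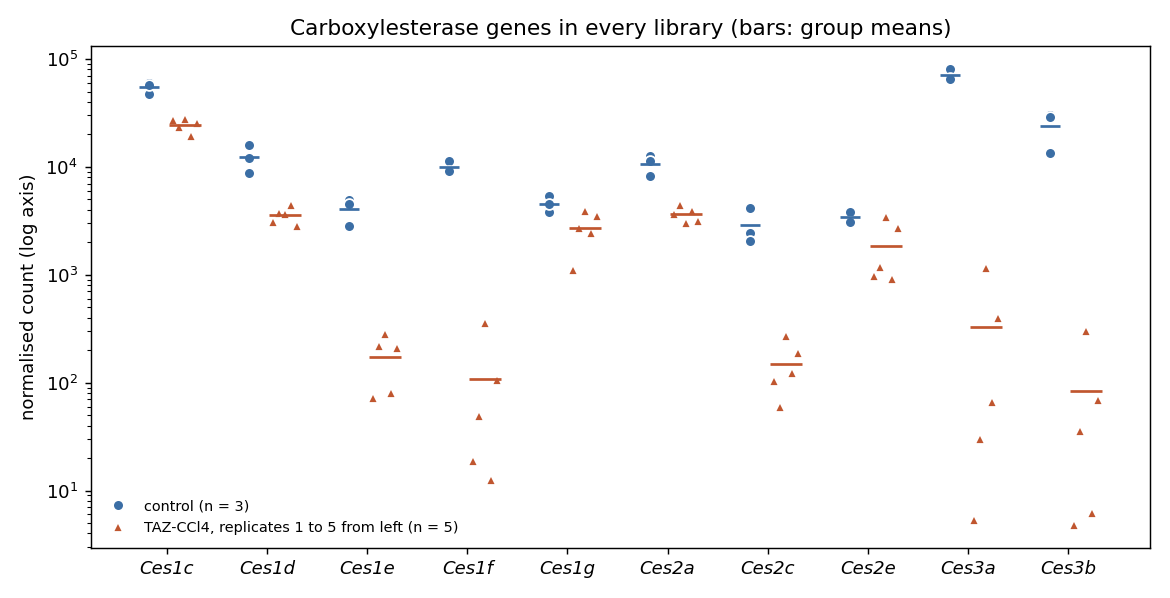
Normalised count (log axis) of each of the 10 carboxylesterase genes in every library, with circles for the 3 controls, triangles for TAZ-CCl4 replicates 1 to 5 from left to right, and bars for group means. At the deposited scaling the groups overlap for Ces1g and Ces2e, while the Ces3a triangles lie between 5.33 and 1151 against circles of 65961 and above.

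**Figure D2:**
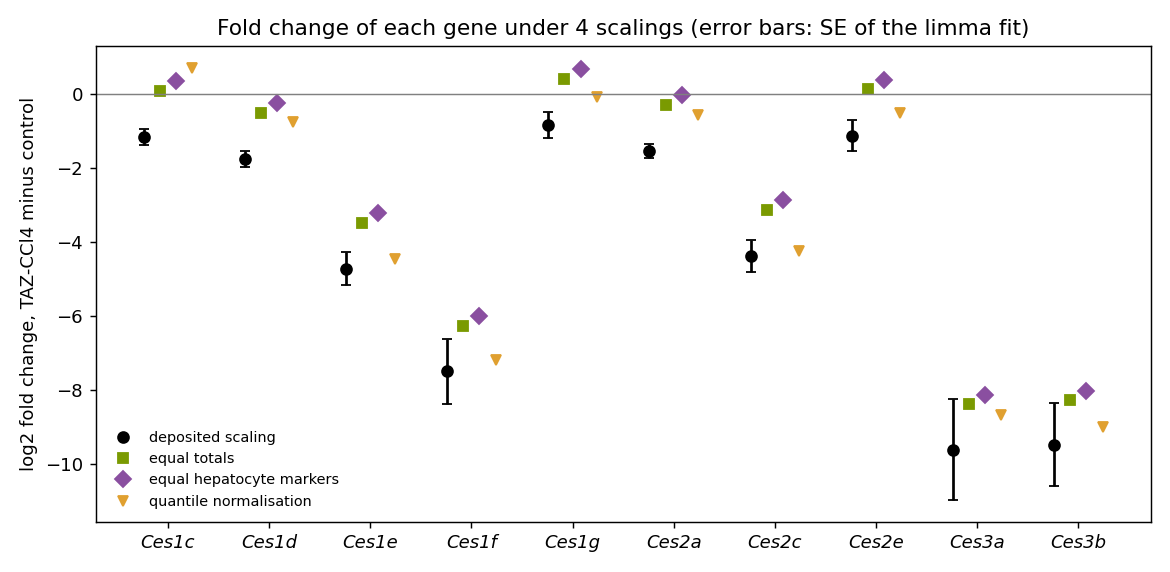
Log2 fold change (TAZ-CCl4 minus control) of each gene at the deposited scaling, with the SE of the limma fit, and at equal totals, equal hepatocyte markers and after quantile normalisation. Ces1e, Ces1f, Ces2c, Ces3a and Ces3b stay at or below -2.88 under all 4, whereas Ces1c, Ces1g and Ces2e lie above 0 at equal totals and at equal hepatocyte markers.

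The Ces3 genes, which encode liver carboxylesterases of their own subfamily, fell most of the 10, and Ces3a went from the highest level per length of the 10 to a low one. Ces3a (ENSMUSG00000069922.12, mm10 chromosome 8, 105048601 to 105058413) had 81283, 66588 and 65961 normalised counts in control replicates 1 to 3, and 5.33, 30.3, 1151, 66.5 and 394 in TAZ-CCl4 replicates 1 to 5. The groups lay far apart, and within the TAZ-CCl4 libraries the highest value, in replicate 3, was 216 times the lowest, in replicate 1. The means were 71277 ± 8671 (SD, n = 3) and 329 ± 485 (SD, n = 5; 124 without TAZ-CCl4 replicate 3), which is -9.61 ± 1.36 (SE) as a log2 fold change (limma, adjusted p = 1.52e-04). It was -8.65 without TAZ-CCl4 replicate 1 and -10.53 without replicate 3. Ces3b (ENSMUSG00000062181.14, 105083753 to 105093929) had 30354, 13360 and 28767 in control replicates 1 to 3, with replicate 2 the lowest, and 4.81, 35.6, 304, 6.16 and 69.8 in TAZ-CCl4 replicates 1 to 5. Again no TAZ-CCl4 library came near the controls and replicate 3 was the highest. Its means were 24160 ± 9387 and 84.1 ± 126 (29.1 without TAZ-CCl4 replicate 3), and its log2 fold change was -9.48 ± 1.11 (limma, adjusted p = 4.47e-05), -8.86 without TAZ-CCl4 replicate 1 and -10.29 without replicate 3. Because the pair shares sequence, their sum is the safer measure: it went from 95437 ± 15856 (SD, n = 3) to 414 ± 610 (SD, n = 5; 153 without TAZ-CCl4 replicate 3).

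In the Ces1 subfamily, which lies on the minus strand of chromosome 8, Ces1f and Ces1e fell most. Ces1f (ENSMUSG00000031725.8, 93256236 to 93279747), also known as triacylglycerol hydrolase 2, had 9416, 11452 and 9168 in control replicates 1 to 3, and 18.7, 48.6, 359, 12.5 and 106 in TAZ-CCl4 replicates 1 to 5. The controls were close together, and the TAZ-CCl4 libraries spread 28.8-fold with replicate 3 again highest. The means were 10012 ± 1253 in the control group and 109 ± 145 in the TAZ-CCl4 group (46.4 leaving out TAZ-CCl4 replicate 3), and its log2 fold change was -7.50 ± 0.88 (limma, adjusted p = 4.48e-05), or -8.18 without that replicate. Ces1e (ENSMUSG00000061959.13, 93201218 to 93229619), which encodes egasyn, the protein that holds beta-glucuronidase in the endoplasmic reticulum, had 2811, 4918 and 4572 in control replicates 1 to 3, and 72.3, 216, 284, 79.9 and 208 in TAZ-CCl4 replicates 1 to 5. Replicates 1 and 4 were the low libraries here, all well below the controls. Its log2 fold change was -4.73 ± 0.45 (limma, adjusted p = 1.04e-05). Gusb, the gene of beta-glucuronidase, rose from 384 ± 44.0 to 638 ± 82.8 (limma, adjusted p = 0.00141).

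Ces1d (ENSMUSG00000056973.6, 93166068 to 93197838), the triacylglycerol hydrolase that supplies lipid for very low density lipoprotein, fell less. It had 8747, 15874 and 12159 in control replicates 1 to 3, and 3115, 3762, 3637, 4424 and 2808 in TAZ-CCl4 replicates 1 to 5. The groups did not overlap and the TAZ-CCl4 libraries were close together, within 1.58-fold. The log2 fold change was -1.76 ± 0.21 (limma, adjusted p = 4.98e-05), but -0.51 at equal totals, where it did not pass. Ces1c (ENSMUSG00000057400.14, 93099015 to 93131283), the plasma carboxylesterase, had 47694, 60428 and 57636 in control replicates 1 to 3, and 27366, 23243, 27651, 19455 and 25313 in TAZ-CCl4 replicates 1 to 5. All TAZ-CCl4 libraries lay below the controls, within 1.42-fold of each other. Its log2 fold change of -1.17 ± 0.21 (limma, adjusted p = 6.66e-04) was 0.08 at equal totals, 0.33 at equal hepatocyte markers and 0.70 after quantile normalisation. Ces1g (ENSMUSG00000057074.6, 93302369 to 93337308), which encodes a lipid hydrolase also called esterase X, had 3839, 5317 and 4535 in control replicates 1 to 3, and 1097, 2701, 3904, 2443 and 3513 in TAZ-CCl4 replicates 1 to 5. TAZ-CCl4 replicate 3 lay above control replicate 1, and replicate 1 was the low library. The log2 fold change was -0.85 ± 0.35 and did not pass (limma, adjusted p = 0.0565). It passed without TAZ-CCl4 replicate 1 (-0.55, adjusted p = 0.0326), without replicate 3 (-1.01, 0.0276) and without replicate 5 (-0.97, 0.0429), and was 0.40 at equal totals.

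Among the Ces2 genes, on the plus strand, Ces2c fell far more than Ces2a and Ces2e. Ces2c (ENSMUSG00000061825.10, 104847068 to 104854483), which encodes an acylcarnitine hydrolase, had 4169, 2417 and 2053 in control replicates 1 to 3, and 104, 59.2, 272, 124 and 187 in TAZ-CCl4 replicates 1 to 5. The groups were clearly apart, with control replicate 1 the highest. The means were 2879 ± 1131 and 149 ± 82.4, and the log2 fold change was -4.38 ± 0.43 (limma, adjusted p = 1.38e-05). Ces2a (ENSMUSG00000055730.16, 104734003 to 104741634), whose product hydrolyses drug and lipid esters, had 8226, 12608 and 11383 in control replicates 1 to 3, and 3635, 4450, 3002, 3922 and 3164 in TAZ-CCl4 replicates 1 to 5. The TAZ-CCl4 libraries were tightly grouped below the controls. Its log2 fold change of -1.55 ± 0.18 (limma, adjusted p = 4.44e-05) was -0.30 at equal totals, where it did not pass. Ces2e (ENSMUSG00000031886.14, 104926260 to 104934672), a further drug-hydrolysing member, had 3457, 3856 and 3092 in control replicates 1 to 3, and 966, 1183, 3449, 910 and 2693 in TAZ-CCl4 replicates 1 to 5. Replicate 3 reached the controls and replicate 5 came close, while the other 3 libraries were about equally low. The log2 fold change was -1.13 ± 0.42 (limma, adjusted p = 0.0371). It no longer passed without any 1 of the controls or of TAZ-CCl4 replicates 1, 2 and 4 (adjusted p of 0.0685 to 0.107), and the value was 0.12 at equal totals.

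Ratios of 2 genes within a library do not depend on scaling factors between libraries. Members of a subfamily that follow each other by name were paired, and 7 such ratios were compared. With 3 and 5 libraries there are 56 splits, and the smallest two-sided p of the exact permutation test is 0.0357. The p-values were not adjusted over the 7 ratios, some of which share a gene. The log2 ratio of Ces1d to Ces1e rose from 1.58 ± 0.15 (SD, n = 3) to 4.54 ± 0.98 (SD, n = 5; exact permutation p = 0.0357). That of Ces1e to Ces1f rose from -1.32 ± 0.38 to 1.45 ± 1.16, so that Ces1f, above Ces1e in each control, lay below it in 4 of 5 TAZ-CCl4 libraries (exact permutation p = 0.0357). The ratio of Ces1f to Ces1g went from 1.14 ± 0.14 to -5.51 ± 1.47, the largest shift of the 7 (-6.65; exact permutation p = 0.0357). Ces2c also parted from both its relatives. The ratio of Ces2a to Ces2c went from 1.94 ± 0.84 to 4.77 ± 1.05 and that of Ces2c to Ces2e from -0.33 ± 0.52 to -3.58 ± 0.56 (exact permutation p = 0.0357 each). The other 2 ratios did not pass. Ces1c to Ces1d stood at 2.21 ± 0.26 and 2.80 ± 0.43 with overlapping groups (exact permutation p = 0.107), and Ces3a to Ces3b at 1.65 ± 0.59 and 1.51 ± 1.5 (exact permutation p = 0.857). The Ces3 ratio spanned -0.23 to 3.24 among the TAZ-CCl4 libraries, so this comparison could hide a sizeable difference.

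**Figure D3:**
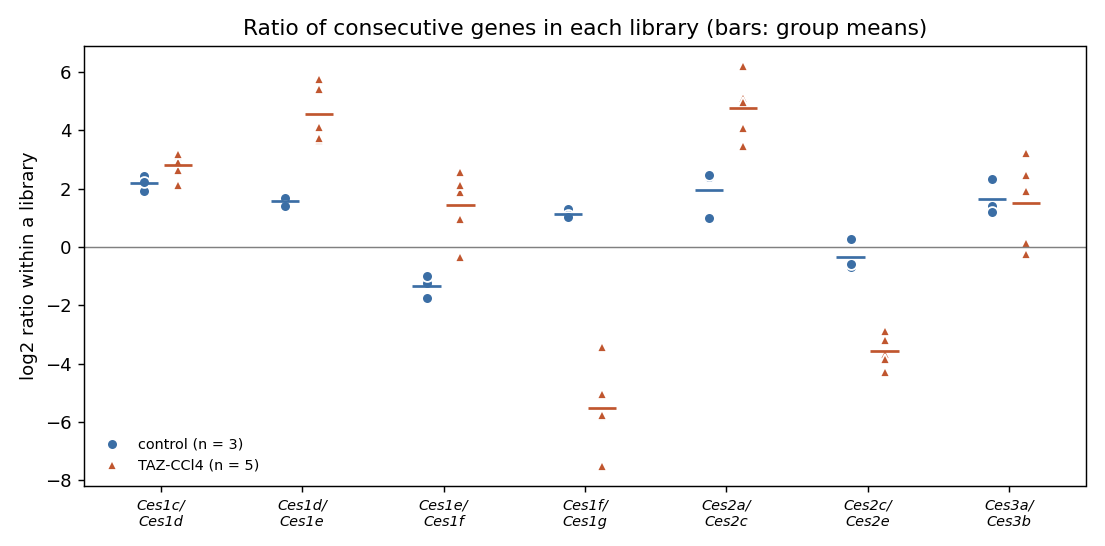
Log2 ratio, within each library, of members consecutive by name, with circles for the 3 controls, triangles for the 5 TAZ-CCl4 libraries and bars for group means. The groups overlap for Ces1c/Ces1d and Ces3a/Ces3b and are separate for the other 5 ratios, most widely for Ces1f/Ces1g.

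The make-up of the carboxylesterase transcript pool changed with these shifts. On the scale of normalised counts per kilobase of the longest annotated transcript, the controls were ordered Ces3a, Ces1c, Ces3b, Ces1d, Ces2a, Ces1f, Ces1e, Ces1g, Ces2c and Ces2e. The ranges of neighbours in that order overlapped except between Ces1c and Ces3b and between Ces1f and Ces1e. In the TAZ-CCl4 libraries the order was Ces1c, Ces2a, Ces1d, Ces1g, Ces2e, Ces3a, Ces1e, Ces2c, Ces1f and Ces3b, and only Ces1c stood clear of its neighbour. Ces3a made up 35.4 ± 4.39% of the pool in the controls (SD, n = 3) and 0.752 ± 1.05% in the TAZ-CCl4 libraries (SD, n = 5; 0.316% without replicate 3). Ces1c took 30.7 ± 3.64% and 69.6 ± 4.80%, or 65.1% to 77.6% in single TAZ-CCl4 libraries against 26.6% to 33.5% in the controls. Ces3b took 10.2 ± 3.98% and 0.163 ± 0.230% (0.0631% without TAZ-CCl4 replicate 3), and Ces1f 5.27 ± 0.653% and 0.266 ± 0.328% (0.126% without it). The shares of Ces2a, 5.56 ± 1.16% and 9.80 ± 2.42%, and of Ces1g, 1.94 ± 0.310% and 5.88 ± 2.04%, were higher in every TAZ-CCl4 library than in any control. By subfamily the Ces1 members held 46.1 ± 6.66% of the control pool and 85.5 ± 1.62% of the TAZ-CCl4 pool, and the Ces3 members 45.6 ± 7.37% and 0.915 ± 1.27% (0.379% without TAZ-CCl4 replicate 3). A share can be higher while the level is lower, as for Ces1c and Ces2a.

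**Figure D4:**
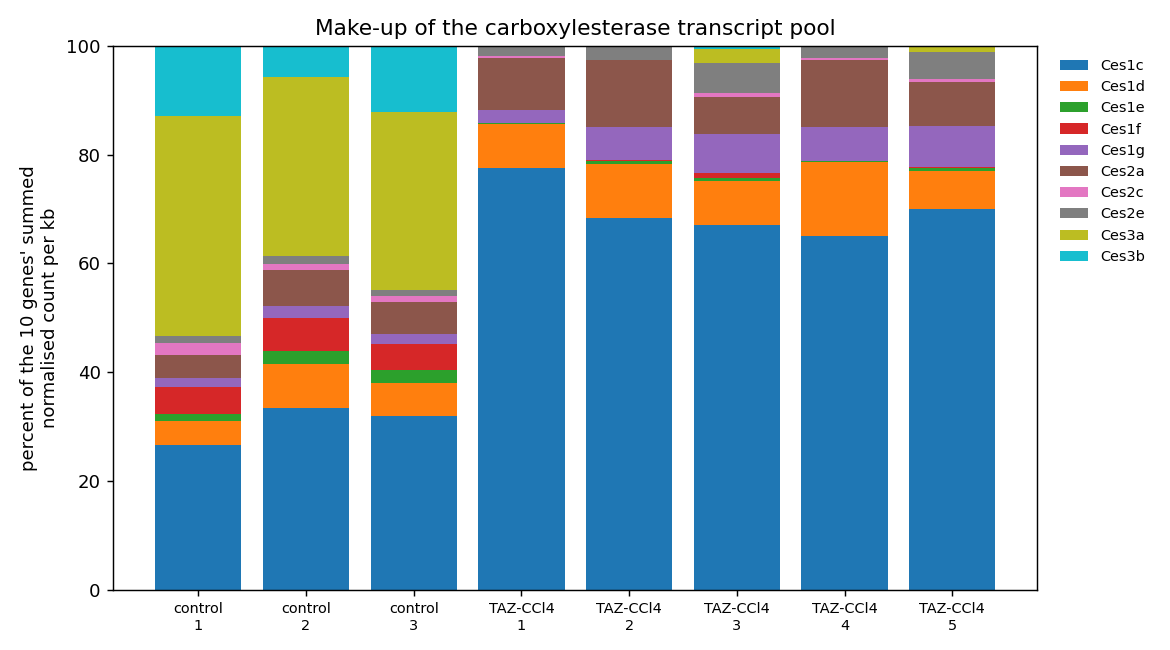
Percent of the 10 genes' summed normalised count per kilobase that each gene contributes, 1 bar per library. Ces3a and Ces1c fill most of the 3 control bars, and Ces1c alone fills 65.1% to 77.6% of the 5 TAZ-CCl4 bars.

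Summed over the 10 members, the normalised counts came to 199996, 196818 and 199325 for control replicates 1 to 3, and 36385, 35729, 44012, 31443 and 38455 for TAZ-CCl4 replicates 1 to 5. The controls were nearly equal and the sum in the TAZ-CCl4 group was 5.34 times lower on average. As a share of all normalised counts, the members took 0.631 ± 0.0531% in the controls and 0.280 ± 0.0220% in the TAZ-CCl4 libraries, with no overlap. Without major urinary protein (Mup) and mitochondrial genes in the total, the shares were 0.886 ± 0.0200% and 0.294 ± 0.0209%.

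The TAZ-CCl4 libraries differed among themselves in a similar order for many members. Replicate 3 was the highest for 8 of the 10, the exceptions being Ces1d and Ces2a, for which replicates 4 and 2 were highest. Replicate 1 was the lowest for 4 members and replicate 4 for 3. The summed hepatocyte markers were 936802, 901378, 1319587, 847202 and 1158103 in replicates 1 to 5, so replicate 3 was also highest and replicate 4 lowest there. The summed cholangiocyte markers were 55504, 34936, 41716, 121898 and 53111, with replicate 4 by far the highest. The hepatocyte sums spanned less than 2-fold, whereas Ces3a spanned 216-fold, Ces3b 63.2-fold and Ces1f 28.8-fold over the same libraries.

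The other 10 genes of the family, none of them a member, were mostly at low levels, and 6 could be tested. Of these 5 were lower (against 29.8% of all tested genes) and Ces2f did not pass. Their median was -2.99 on the log2 scale, and at equal totals 4 were lower (against 6.37%) and Ces2f and Ces2g higher (against 76.3%). Ces4a had 157, 55.5 and 71.9 in control replicates 1 to 3, and 0, 0, 0.980, 0 and 0 in TAZ-CCl4 replicates 1 to 5, the widest gap among these genes. Ces1b, which ends in the same last 6 bases as Ces1c, went from 2087 ± 458 to 322 ± 169 (limma, adjusted p = 1.45e-04), a log2 fold change of -2.84 against -1.17 for Ces1c. Ces2b had means of 92.0 ± 91.6 (39.3 without control replicate 1) and 7.13 ± 2.72, and the pseudogene Ces2d-ps of 29.4 ± 4.03 and 1.76 ± 1.32. Ces2g went from 928 ± 71.7 to 624 ± 204 (limma, adjusted p = 0.0414), and its log2 fold change was -0.63, or 0.62 at equal totals. Ces2f stood at 17.6 ± 4.82 and 17.9 ± 4.08. Ces1a, Ces1h, Ces2h and Ces5a did not reach the mean of 10.

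The members lie in 2 groups on chromosome 8, the Ces1 genes and, further along, the Ces2 and Ces3 genes, with no tested protein-coding gene from outside the family between members of a group. In the Ces1 group Ces1f, at -7.50, lies next to Ces1g, at -0.85. Along the Ces2 genes the log2 fold changes were -1.55 for Ces2a, -3.13 for Ces2b, -4.38 for Ces2c, -3.62 for Ces2d-ps, -1.13 for Ces2e, 0.02 for Ces2f and -0.63 for Ces2g. The value of Ces2d-ps may not be independent of that of Ces2c, with which it shares most of its sequence. Up to 5 tested protein-coding genes outside the family were taken on each side of each group, 19 in all. They lay 76.7 kb (Cbfb) to 1786 kb (Rpgrip1l) from the members of their group. Of these 19, 8 were higher (against 32.4% of all tested genes), 4 lower (against 29.8%) and 7 did not pass. At equal totals 15 were higher (against 76.3%) and 1 lower (against 6.37%). None had a log2 fold change below -2.18, the value of Pdp2, a pyruvate dehydrogenase phosphatase gene. Beside the Ces1 genes lay Lpcat2, an acyltransferase gene that rose by 4.01 on the log2 scale. Beside the Ces2 and Ces3 genes lay Ciao2b, at -0.82 (0.42 at equal totals), and Cbfb, a transcription factor subunit gene at 0.95.

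**Figure D5:**
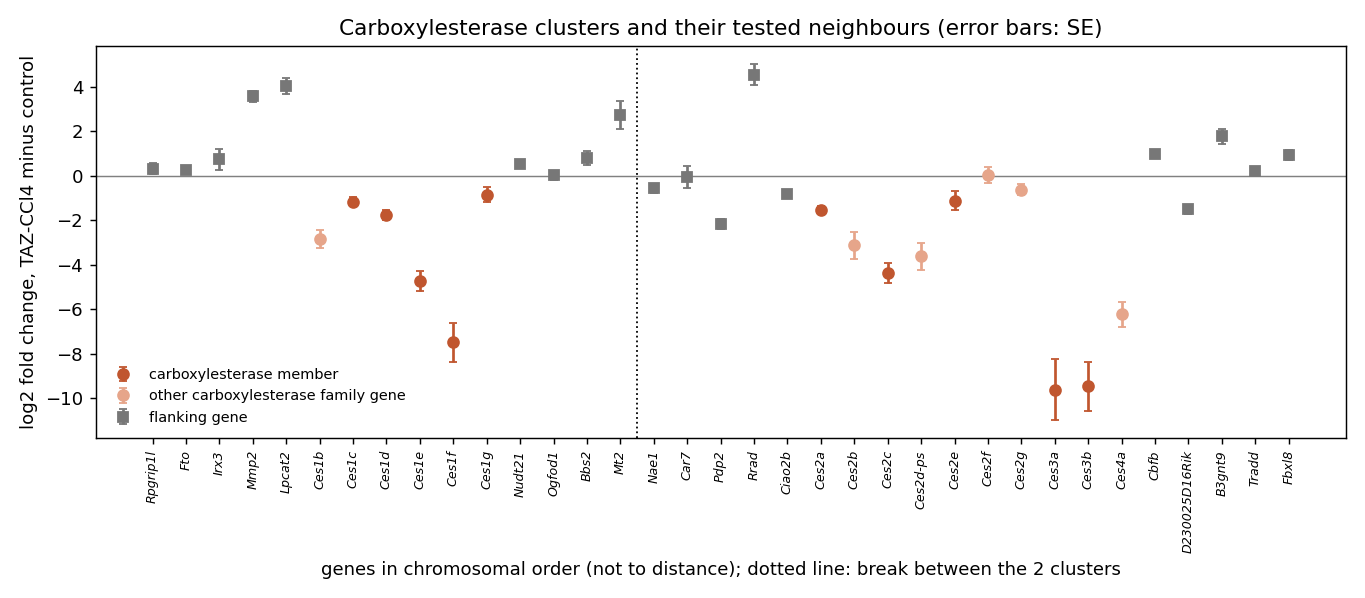
Log2 fold change (TAZ-CCl4 minus control, deposited scaling, SE of the limma fit as bars) of the members, the other tested family genes and 19 flanking genes in chromosomal order, not to distance. The members range from -0.85 to -9.61 and the flanking genes from -2.18 to 4.54. At equal totals Ces1c, Ces1g, Ces2e, Ces2f and Ces2g lie above 0.

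Other enzymes with related roles were read from lists of known genes. For comparison, 29.8% of all tested genes were lower and 32.4% higher, and at equal totals 6.37% were lower and 76.3% higher. Of 15 tested hydrolase genes, 13 were lower, Gusb was higher and Ephx1 did not pass, against 4 lower and 4 higher at equal totals. All but Gusb, the gene of beta-glucuronidase, encode hydrolases of other esters, amides or epoxides. The median of the 15 was -1.37 on the log2 scale, or 0.13 at equal hepatocyte markers. Pon1, the plasma paraoxonase, went from 19757 ± 1137 to 554 ± 561 (330 without TAZ-CCl4 replicate 3) and stood at 194, 157, 1451, 203 and 765 in the TAZ-CCl4 libraries, highest in replicates 3 and 5 as Ces3a was. Ephx2, soluble epoxide hydrolase, had a log2 fold change of -3.33 ± 0.26. It did not share that order, as its highest TAZ-CCl4 library was replicate 2 (mean 2009, or 1725 without it). Of 11 neutral lipid lipases 6 were lower, Lpl and Pnpla3 higher and 3 did not pass (5 higher and 4 lower at equal totals). Hepatic lipase, Lipc, went from 3860 ± 552 to 173 ± 198 (91.8 without TAZ-CCl4 replicate 3) and the endothelial lipase Lipg from 156 ± 68.0 to 4.68 ± 3.33. Of 12 genes of very low density lipoprotein assembly 9 were lower and 3 did not pass, against 3 lower and 4 higher at equal totals. Among them Mttp, the lipid transfer protein that loads these particles, had a log2 fold change of -1.92 ± 0.29 (-0.67 at equal totals) and Apoc3 one of -4.77 ± 0.55.

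Of 12 transcription factors reported to act on carboxylesterase genes, 11 were lower (against 29.8% of all tested genes) and Nfe2l2 did not pass, with a median of -0.97. At equal totals 2 were lower (against 6.37%) and 3 higher (against 76.3%), with a median of 0.28. Nr1i3, which encodes the drug sensor CAR, had 5570, 9111 and 6061 in control replicates 1 to 3, and 106, 110, 271, 20.1 and 63.9 in TAZ-CCl4 replicates 1 to 5. No library of the TAZ-CCl4 group came near the controls, and the log2 fold change was -6.31 ± 0.64 (limma, adjusted p = 1.63e-05; -5.07 at equal totals). Nr0b2, the corepressor SHP, had a log2 fold change of -3.22 ± 0.29. Hnf4a, a regulator of hepatocyte identity, went from 12966 ± 795 to 6706 ± 820, and its log2 fold change was -0.96, or 0.29 at equal totals. The drug sensor gene Nr1i2, encoding PXR, had -0.80 (0.46 at equal totals), Ppara -0.95 (0.30) and Nfe2l2, encoding NRF2, 0.25 (1.5). Of the 3 KDEL receptor genes, Kdelr3 rose from 4.07 ± 0.664 to 83.8 ± 15.2 (limma, adjusted p = 2.47e-06), and Kdelr1 and Kdelr2 did not pass. At equal totals all 3 were higher, against 76.3% of all tested genes.

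The 5 genes outside the family whose log2 values over the 8 libraries were most like those of the members, by the mean Pearson r with the 10, were Srd5a1, Acss2, Ppp1r3c, Idh1 and Sdr9c7. Their mean r was 0.926 to 0.929, lowest in each case with Ces1g. This is a description over 8 libraries that differ mainly by group, and 616 of 14155 genes had a mean r above 0.9. Srd5a1, a steroid reductase gene, had 2180, 2800 and 2513 in control replicates 1 to 3, and 105, 192, 360.5, 157 and 303 in TAZ-CCl4 replicates 1 to 5, highest in replicates 3 and 5. Since Srd5a1 was chosen by its r over these same libraries, that order is not a separate result.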

How the data were processed

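Poly-A libraries of liver pieces were made with TruSeq chemistry and sequenced in pairs on a NovaSeq, per the labels' protocols. The authors deposited a signal per gene and library, gene-level counts divided by scaling factors, with kallisto and DESeq2 per the deposited table's name, and DESeq2 and mm10 per the submitters' processing notes. Versions, transcript annotation and gene filters were not given in the sources used here. Such values are not whole. The most frequent value below 3, taken as 1 read, was 0.365 to 1.89 per library, and only 52.7% to 66.8% of the low values (below 10) came within 0.03 of a whole multiple, so no count model was used. On that step the depth was about 12.4 to 33.9 M reads.

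Genes averaging at least 10 across the 8 libraries were tested on log2(value + 1) with limma 3.58.1 (R 4.3.3), letting the prior variance follow abundance, with Benjamini-Hochberg adjustment over all 14171. The pseudocount makes fold changes of low genes too small. The fit was first tried on simulated data with known changes. Ratios were tested by exact two-sided permutation (SciPy 1.17.1). Positions and transcripts come from GENCODE M21, of the same build, and coding sequences were aligned with Biopython 1.88.

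The members and gene lists were chosen with earlier results of these data known. The text names all members, the tested family genes, 2 called genes per list (largest change among those averaging 50 or more in 1 group), 5 chosen factors, the 5 most similar genes and some flanking genes. Other list genes were named after their values were seen. Of the flanking genes chosen by distance, 1 is not reported here. Alternatives covered scaling, pseudocount, filter, prior variance, single libraries and the replicate number as a block.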

Additional observations from a re-analysis of the deposited data

Results flagged for a closer look

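Values of 3 carboxylesterase genes stood apart in TAZ-CCl4 replicate 3, by the gap to the nearest of the other TAZ-CCl4 libraries over the whole range (Dixon's criterion for 5 libraries). They were Ces1f at 359, Ces3b at 304 and Ces4a at 0.980, each the highest of the 5. The gap was taken on the normalised counts, not on the log2 scale of the fits. Chance flags about 1 in 20 only if such values are normally distributed, which was not tested. The 16 family genes examined share the same 5 libraries. For Ces4a the other 4 libraries were at 0, so its flag rests on about 1 read.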

How the results depend on the processing

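Ces1e, Ces1f, Ces2c, Ces3a and Ces3b were lower in all 19 alternatives run, with log2 fold changes of -4.98 to -3.23, -8.18 to -6.02, -4.64 to -2.88, -10.53 to -8.14 and -10.29 to -8.02. The calls of Ces1c, Ces1d, Ces2a and Ces2e depended on the scaling, while Ces1g did not pass under any of the 6 scalings. Ces1c was 0.080 at equal totals, 0.33 at equal hepatocyte markers, 0.70 after quantile normalisation and -0.34, not passing, when the totals leave out Mup and mitochondrial genes. Ces1d and Ces2a no longer passed at equal totals (-0.51 and -0.30) or at equal hepatocyte markers (-0.26 and -0.052). Under those settings Ces1g was 0.40 and 0.65, not passing. Ces2e was 0.12 and 0.37 under them, and did not pass at -0.30 without Mup and mitochondrial genes in the totals, at -0.51 after quantile normalisation and at -1.13 with no trend in the prior variance. Leaving out 1 library gave -1.01 to -0.55 for Ces1g, with 3 of 8 passing, and -1.42 to -0.94 for Ces2e, with 2 of 8 passing. The members lower numbered 5 at equal totals and 5 at equal hepatocyte markers. Genes higher and lower among all tested numbered 10808 and 903 at equal totals, 8912 and 1512 without Mup and mitochondrial genes, and 11336 and 681 at equal hepatocyte markers. The summed share of the controls moved to 0.886% with the smaller denominator.

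Without 1 library the smallest possible exact p rises to 0.0571 or 0.0952, so no ratio can come under 0.05 even unadjusted, and the loss says nothing about stability. The shifts then ran from 2.66 to 3.18 for Ces1d to Ces1e, 2.49 to 3.22 for Ces1e to Ces1f, -7.17 to -6.15 for Ces1f to Ces1g, 2.34 to 3.15 for Ces2a to Ces2c and -3.42 to -2.94 for Ces2c to Ces2e. Ces3a to Ces3b, not under 0.05 with all libraries, ran from -0.57 to 0.30, with 0.30 without TAZ-CCl4 replicate 2, 0.21 without replicate 1 and 0.20 without control replicate 2. Nothing in the labels pairs libraries by number, and same-numbered libraries had deviations correlated at -0.0883 to -0.0640. With the replicate block Ces1g passed, at -1.0 (adjusted p = 0.0295), Ces2e stayed called at -1.13, and 3801 genes were higher and 3479 lower. Values near 1 read, as in Ces4a, cannot be resolved at this depth.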
